A study of Mus musculus with 20 samples.

Results

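The integrated stress response genes, 10 in number, were followed across mouse blastocysts that had been biopsied, or exposed to the media used for biopsy, as 8-cell embryos. The genes were Chac1, Ddit3, Atf4, Atf3, Trib3, Asns, Sesn2, Ddit4, Psat1 and Eif2ak3, and their members on the array were all probe sets whose symbol in the platform annotation was one of these names. This gave 19 probe sets for 10 genes, of 45101 probe sets in all. Of these, 16 probe sets of 9 genes were among the 25553 with a Present detection call on 3 or more arrays and were tested, and 14 were called Present on all 20 arrays.

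RNA was measured on 20 MOE430 2.0 GeneChips, each holding the RNA of a pool of 20 blastocysts of the CF1 strain, with 4 pools in each of 5 groups. Untreated embryos had neither exposure and no cell removed. The CMF embryos were incubated in medium without calcium and magnesium, which loosens the contacts between blastomeres. The acid embryos were exposed to acid Tyrode's solution, which dissolves a hole in the zona pellucida around the embryo. The CMF_acid embryos had both exposures, and the biopsy embryos had both exposures and lost a blastomere by aspiration. All groups, untreated included, were then cultured singly in KSOM with amino acids to 96 h after hCG, and each pool's RNA was linearly amplified and labelled with biotin. The replicates are numbered 2 to 5 in every group, and the labels do not say what a number stands for. The sex tag reads female on 19 of the 20 samples, and the labels do not say what it refers to. P-values therefore measure only the spread between these pools, which may be technical, and in pooled embryos fewer cells of a type and less RNA per cell cannot be told apart.

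The integrated stress response begins with kinases that sense trouble in the endoplasmic reticulum, amino acid shortage, double-stranded RNA or haem shortage and phosphorylate the translation factor eIF2. This slows most protein synthesis but favours translation of the Atf4 mRNA, and the ATF4 protein, with C/EBP partners, switches on genes for amino acid supply, redox balance and, when stress persists, cell death. Mammalian embryos cultured outside the oviduct can take up amino acids from their medium, and amino acid shortage is sensed by the kinase GCN2 of this pathway.

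All 10 blastocyst lineage markers checked, among them Pou5f1, Cdx2, Krt8 and Sox17, were called Present on all 20 arrays. Of 12 markers of cumulus and granulosa cells, 3 passed the detection filter (Amhr2, Star and Vim). Their summed intensity on the log2 scale was 9.74 to 10.26 (untreated), 9.84 to 10.13 (CMF), 9.81 to 10.19 (acid), 9.74 to 10.86 (CMF_acid) and 9.47 to 10.43 (biopsy). Of the 3, Vim differed between biopsy and untreated by -0.89 ± 0.32 and Amhr2 by 0.20 ± 0.26 (SE; limma, adjusted p = 1 for both), and the part of these markers in the results was not tested. Between 44.3% and 50.9% of probe sets were called Present per array. CMF_acid replicate 5 stood apart, with the lowest share of Present calls, an actin 3′ to 5′ ratio of 4.22 (1.51 to 3.06 on the other 19 arrays) and a mean correlation with the other arrays of 0.985 (0.994 to 0.996 for the others).

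The promoters of Chac1, Trib3 and Asns are shown because each holds the core of the C/EBP-ATF response element, TGATGNAA, in a RefSeq window of 250 bases before to 50 after the transcription start (GRCm38.p6, capitals mark the match). The Chac1 window is chr2:119350992-119351291 on the plus strand, the Trib3 window chr2:152344011-152344310 on the minus strand and the Asns window chr6:7693160-7693459 on the minus strand.
Chac1: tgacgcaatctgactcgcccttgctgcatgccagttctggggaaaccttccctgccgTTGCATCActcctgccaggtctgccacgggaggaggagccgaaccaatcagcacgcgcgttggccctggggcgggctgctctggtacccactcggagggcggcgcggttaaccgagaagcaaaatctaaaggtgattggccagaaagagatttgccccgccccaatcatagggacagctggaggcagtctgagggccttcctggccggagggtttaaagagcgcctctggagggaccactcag
Trib3: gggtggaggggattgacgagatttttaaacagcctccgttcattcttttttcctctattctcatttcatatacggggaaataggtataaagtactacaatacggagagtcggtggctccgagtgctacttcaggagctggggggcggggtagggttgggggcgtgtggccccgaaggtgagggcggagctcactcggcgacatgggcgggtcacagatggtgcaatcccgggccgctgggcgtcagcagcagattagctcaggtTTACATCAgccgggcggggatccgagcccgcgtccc
Asns: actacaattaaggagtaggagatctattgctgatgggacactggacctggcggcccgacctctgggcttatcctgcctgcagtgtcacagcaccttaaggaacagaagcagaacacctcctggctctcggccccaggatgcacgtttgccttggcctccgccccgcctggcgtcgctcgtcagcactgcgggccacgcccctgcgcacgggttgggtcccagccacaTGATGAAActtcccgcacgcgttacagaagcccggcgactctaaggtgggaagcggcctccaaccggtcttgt
In Chac1 the match lies on the opposite strand, 193 to 186 bases before the start, and reads TGATGCAA. In Trib3 it lies on the opposite strand at bases 15 to 22 after the start and reads TGATGTAA. In Asns it lies on the gene's own strand, 23 to 16 bases before the start, and reads TGATGAAA. Both strands were searched, and the window of Atf3 also held the motif, TGATGCAA on the opposite strand 110 to 103 bases before its start, so 4 of the 10 genes had it. The windows of Ddit3, Atf4, Sesn2, Ddit4, Psat1 and Eif2ak3 held no match. The motif occurred in 3.97% of all 32851 RefSeq windows of this length and in 2.29% of the 12446 windows of genes tested on the arrays. Of the 11 windows of the 10 genes, 4 held it (36.4%). These genes were listed as members of a pathway that acts through ATF4, so their share is not an independent result. A match describes the letters of the window and is not evidence of binding.

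No member differed between groups at an adjusted p under 0.05 in limma with Benjamini-Hochberg adjustment over all tested probe sets. The same was true of all 25553 probe sets, of which 0% were called in every group comparison. At an unadjusted p under 0.05, limma passed 535 of 25553 probe sets for biopsy versus untreated (2.09%), 258 for CMF (1.01%), 296 for acid (1.16%) and 683 for CMF_acid (2.67%), each against untreated. The count was 1881 for biopsy versus CMF_acid (7.36%), 868 for the CMF by acid interaction (3.4%) and 462 for any difference among the 5 groups (1.81%). Of the 16 member probe sets, 0 passed this level for biopsy, CMF or CMF_acid versus untreated and for biopsy versus CMF_acid, 1 passed it for acid, 2 for the interaction and 1 for the difference among groups. Several members had a wide spread between pools of the same group, and for some it followed the replicate number. Values are log2 of the deposited GC-RMA intensity, and levels are compared between arrays for a probe set, not between probe sets.

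Eif2ak3 encodes PERK, the kinase that phosphorylates eIF2 when unfolded proteins accumulate in the endoplasmic reticulum. The brighter Eif2ak3 probe set (1449278_at, chromosome 6) measured 9.75, 10.02, 10.39 and 10.10 in untreated replicates 2, 3, 4 and 5, and 10.12, 10.11, 10.12 and 10.35 in CMF. It measured 9.97, 10.34, 10.12 and 10.39 in acid, 10.13, 9.91, 10.14 and 8.86 in CMF_acid, and 10.14, 10.29, 10.17 and 10.11 in biopsy. The groups overlapped, and a single array, CMF_acid replicate 5, lay over a log2 unit below the rest of its group. The fitted difference for biopsy versus CMF_acid was 0.41 ± 0.21 (SE, n = 4 arrays per group; limma, adjusted p = 0.617) and became 0.12 without that array. CMF_acid versus untreated changed from -0.30 ± 0.21 (limma, adjusted p = 0.834) to -0.0038 in the same way.

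Atf4 encodes the transcription factor at the centre of the response. Its brighter probe set (1438992_x_at, chromosome 15) measured 14.02, 13.70, 13.98 and 14.09 in untreated replicates 2, 3, 4 and 5, 14.11, 13.50, 13.74 and 13.79 in CMF and 13.97, 13.71, 13.91 and 13.75 in acid. The CMF_acid values were 14.14, 14.13, 13.97 and 14.07, and the biopsy values 14.20, 14.07, 14.08 and 13.89. The lowest array of all was CMF replicate 3, and the CMF_acid pools spanned the narrowest range, but every treated group overlapped untreated. The fitted difference from untreated was 0.11 ± 0.11 for biopsy, -0.16 ± 0.11 for CMF and 0.13 ± 0.11 for CMF_acid (SE; limma, all adjusted p 0.834 or above). The dimmer probe set (1448135_at) ranged from 12.30 to 12.98, and another (1439258_at) was not called Present on any array.

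Atf3 encodes a stress-induced factor that ATF4 switches on. Its single probe set (1449363_at, chromosome 1) was called Present on 1 of 20 arrays, acid replicate 2, at 3.09, and measured 2.37 to 2.75 on the other 19. It was therefore not tested, and no level of Atf3 is given for any group.

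Ddit3 encodes CHOP, a factor downstream of ATF4 that favours cell death under lasting stress. Its brighter probe set (1417516_at, chromosome 10) measured 8.54, 8.80, 8.34 and 8.16 in untreated replicates 2, 3, 4 and 5, 8.79, 8.11, 8.40 and 8.25 in CMF and 8.22, 8.09, 7.82 and 7.65 in acid. It measured 9.11, 8.72, 7.95 and 8.52 in CMF_acid and 8.81, 8.54, 8.28 and 8.56 in biopsy. The acid pools were on the low side, with a mean of 7.94 ± 0.26 against 8.46 ± 0.27 in untreated (SD, n = 4), but acid replicate 2 lay above untreated replicate 5. At each replicate number the acid pool lay below the untreated pool. With the number added to the fit, the acid comparison still had no call. The acid difference of -0.52 ± 0.22 (SE; limma, adjusted p = 0.9999) was the 1 member difference for acid that passed without adjustment, and it did not pass with it. For biopsy the difference was 0.09 ± 0.22 (SE; limma, adjusted p = 1), with opposite sign when the software signal replaced the GC-RMA values (-0.077). The dimmer probe set (1443897_at) was called Present on 3 arrays and ranged from 3.71 to 5.17.

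Chac1 encodes an enzyme that degrades glutathione and is a target of the ATF4, ATF3 and CHOP factors. Its probe set (1451382_at, chromosome 2) measured 7.68, 8.54, 7.76 and 9.60 in untreated replicates 2, 3, 4 and 5, 9.61, 6.92, 6.14 and 9.00 in CMF and 9.07, 6.63, 6.19 and 7.81 in acid. It measured 9.51, 7.47, 7.26 and 9.44 in CMF_acid and 9.11, 8.62, 9.05 and 9.78 in biopsy. The biopsied pools lay close together at the high end, while in CMF, acid and CMF_acid replicates 3 and 4 were low and replicate 2 was high. The group means were 8.39 ± 0.89 for the untreated pools, 7.92 ± 1.65 with CMF, 7.43 ± 1.29 with acid, 8.42 ± 1.22 with CMF_acid and 9.14 ± 0.48 after biopsy (SD, n = 4). The difference from untreated was 0.75 ± 0.79 for biopsy, -0.97 ± 0.79 for acid and -0.48 ± 0.79 for CMF, and biopsy exceeded CMF_acid by 0.72 ± 0.79 (SE; limma, adjusted p 0.617 or above). The acid value was the lowest fitted difference among the 12025 tested genes, and it lay within the spread between pools. These values moved with single pools. The CMF value ranged from -1.04 without CMF replicate 2 to 0.11 without CMF replicate 4. The acid value ranged from -1.52 without acid replicate 2 to -0.56 without acid replicate 4, and was -0.57 without untreated replicate 5. The biopsy value was 1.15 without untreated replicate 5. The biopsy versus CMF_acid value ranged from 0.33 without CMF_acid replicate 4 to 1.08 without CMF_acid replicate 2, with 0.40 without CMF_acid replicate 3 and 1.06 without CMF_acid replicate 5.

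Trib3 encodes a pseudokinase induced by ATF4 and CHOP that restrains ATF4 activity and AKT signalling. Its brighter probe set (1426065_a_at, chromosome 2) measured 6.59, 6.95, 6.92 and 7.16 in untreated replicates 2, 3, 4 and 5, 8.07, 6.42, 6.41 and 7.22 in CMF and 7.28, 6.64, 6.35 and 6.53 in acid. It measured 8.36, 7.54, 6.38 and 6.72 in CMF_acid and 8.86, 7.49, 6.71 and 7.51 in biopsy. Replicate 2 was the highest pool of every treated group and the lowest of the untreated group. For biopsy the difference from untreated was 0.73 ± 0.47 at this probe set and 0.88 ± 0.60 at the other (1456225_x_at; SE; limma, adjusted p = 1 for both). Without biopsy replicate 2 these became 0.33 and 0.52.

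Ddit4 encodes REDD1, a stress-induced inhibitor of mTORC1, the kinase complex that promotes growth. Its probe set (1428306_at, chromosome 10) measured 10.20, 10.52, 10.50 and 10.89 in untreated replicates 2, 3, 4 and 5, 10.92, 9.33, 10.37 and 10.88 in CMF and 9.61, 9.93, 9.80 and 10.13 in acid. It measured 11.33, 10.36, 9.81 and 10.02 in CMF_acid and 11.03, 10.69, 10.94 and 11.39 in biopsy. All 4 acid pools lay below all 4 untreated pools, with means of 9.87 ± 0.22 and 10.53 ± 0.28, and the biopsy mean was 11.01 ± 0.29 (SD, n = 4). This was the 1 of 16 member probe sets whose acid and untreated values did not overlap (6.25%), beside 0.904% of all tested probe sets. In the other comparisons 0 of 16 did so, beside 2.17% of all probe sets for biopsy, 1.36% for CMF and 0.744% for CMF_acid versus untreated and 2.18% for biopsy versus CMF_acid. The fitted difference was -0.66 ± 0.33 for acid, 0.49 ± 0.33 for biopsy and 0.63 ± 0.33 for biopsy versus CMF_acid (SE; limma, adjusted p = 0.9999, 1 and 0.617). Ddit4 was also the member with the largest overall F among the 5 groups, 3.01 (limma, adjusted p = 0.974).

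Sesn2 encodes a leucine sensor that restrains mTORC1 and is induced by ATF4. The brighter Sesn2 probe set (1425139_at, chromosome 4) measured 10.84, 10.45, 10.61 and 10.36 in untreated replicates 2, 3, 4 and 5, 10.64, 10.11, 10.79 and 10.15 in CMF and 10.83, 10.16, 10.39 and 9.95 in acid. It measured 10.18, 10.60, 10.30 and 10.25 in CMF_acid and 10.46, 10.34, 10.46 and 10.85 in biopsy. All groups overlapped, and no replicate number held the highest pool in every group. The second probe set (1451599_at) ranged from 9.03 to 9.97.

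Asns encodes asparagine synthetase, whose promoter is a classic ATF4 target. Its brighter probe set (1433966_x_at, chromosome 6) measured 12.67, 12.38, 12.49 and 12.37 in untreated replicates 2, 3, 4 and 5, 13.12, 12.15, 12.23 and 12.03 in CMF and 12.74, 12.17, 12.21 and 11.92 in acid. It measured 12.72, 12.51, 12.15 and 12.55 in CMF_acid and 13.16, 12.41, 12.12 and 12.26 in biopsy. Replicate 2 was the highest pool in all 5 groups, and the groups overlapped. Biopsy differed from untreated by 0.01 ± 0.25 (SE; limma, adjusted p = 1), a value below 0 with the mean of both probe sets (-0.051) and with the software signal (-0.0024).

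Psat1 encodes an enzyme of serine synthesis. The brighter Psat1 probe set (1454607_s_at, chromosome 19) stayed between 15.61 and 15.87 on all 20 arrays, with group means from 15.68 to 15.73. The other (1451064_a_at) reached its lowest value, 13.56, on CMF_acid replicate 5. At the brightest probe sets, Psat1 had the narrowest range of the 9 tested genes, 1.20-fold between the lowest and highest array, while its other probe set spanned 1.70-fold. The SD within groups of the brighter one was at the 54.0th percentile among probe sets of like intensity.

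**Figure D1:**
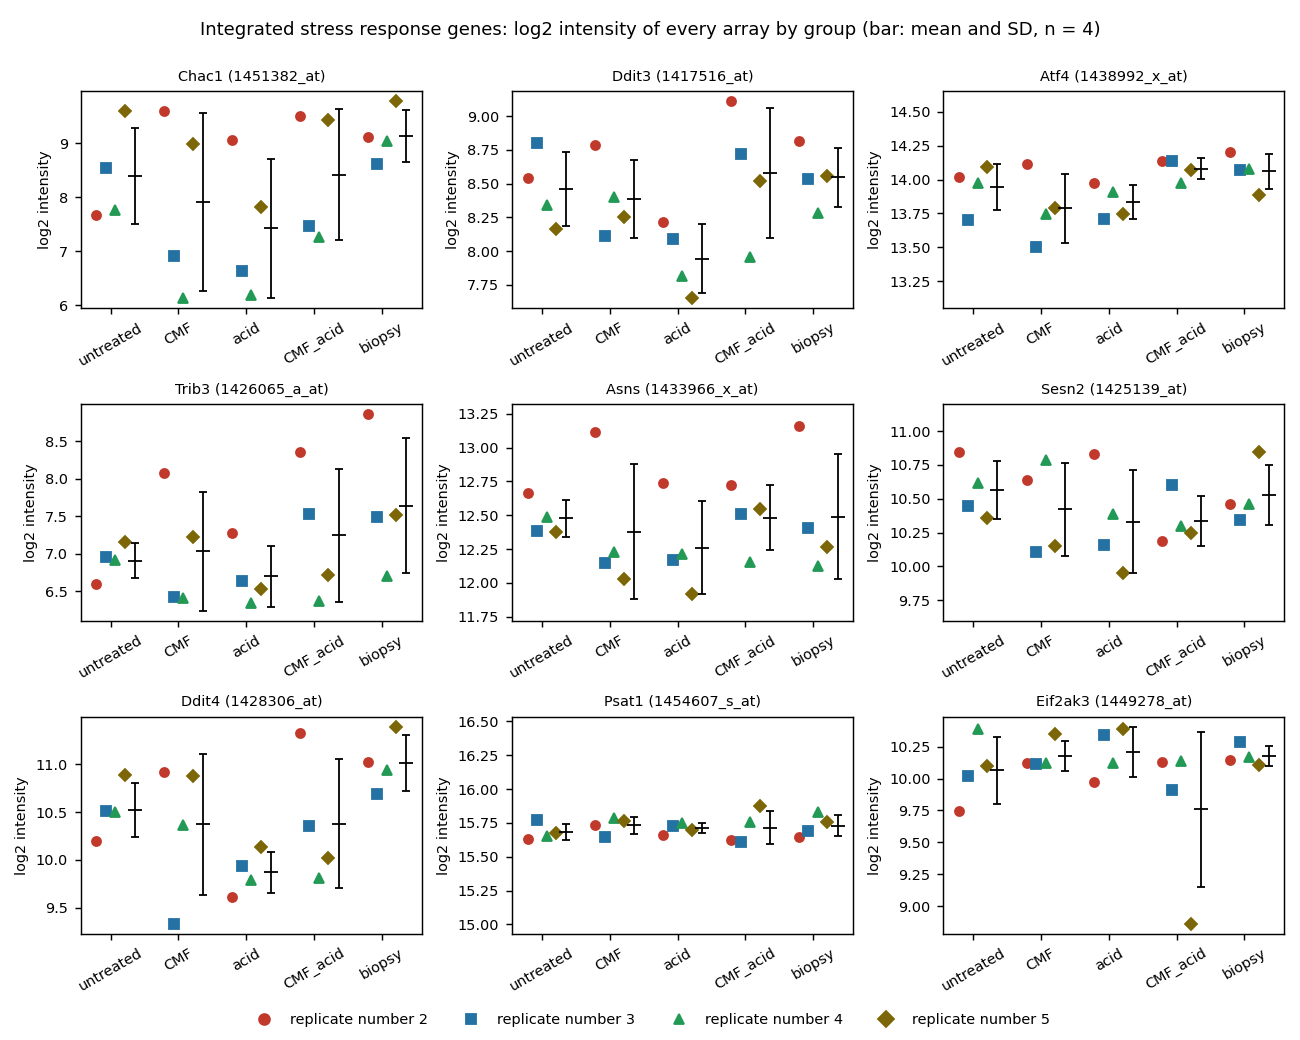
Log2 intensity of the 9 tested genes on every array (points, shaped and coloured by replicate number) by group, with group mean and SD (bars, n = 4), each at the gene's brightest tested probe set. Chac1, Trib3 and Ddit4 span wide ranges within groups, Psat1 stays between 15.61 and 15.87, and the 4 acid pools of Ddit4 lie below the 4 untreated pools.

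Ranked by group mean at the brightest probe set, the acid group was lowest for 6 of the 9 genes and biopsy was highest for 4. Neighbours in this order differed by less than the SD within groups for 7 of the genes. The exceptions were Ddit3, where acid lay 0.44 below the next group (SD within groups 0.32), and Ddit4, where acid lay 0.51 below the next (SD 0.49). The distance from the lowest to the highest group mean was 1.72 for Chac1, 1.14 for Ddit4, 0.94 for Trib3, 0.63 for Ddit3 and 0.05 for Psat1. With the software signal, 5 of 9 genes had the same highest group.

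Across the 9 genes, the median difference for biopsy versus untreated was 0.11, with 8 genes higher and 1 lower. Over all 12025 tested genes the median was 0.01, with 7107 higher and 4918 lower. Of the 8 genes, Asns and Ddit3 changed sign under some alternatives. For acid the median was -0.22, with 2 genes higher and 7 lower, beside -0.0012 over all genes (5936 higher and 6089 lower). The medians were -0.10 for CMF (3 higher and 6 lower) and 0.03 for CMF_acid (6 higher and 3 lower), beside 0.0079 and 0.0094 over all genes. Of all genes, 6414 were higher and 5611 lower for CMF, and 6308 higher and 5717 lower for CMF_acid. These comparisons share the untreated pools. Biopsy versus CMF_acid had a median of 0.19, with 7 genes higher and 2 lower, beside -0.0029 over all genes (5956 higher and 6069 lower). None of these differences passed the adjusted threshold for any gene.

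**Figure D2:**
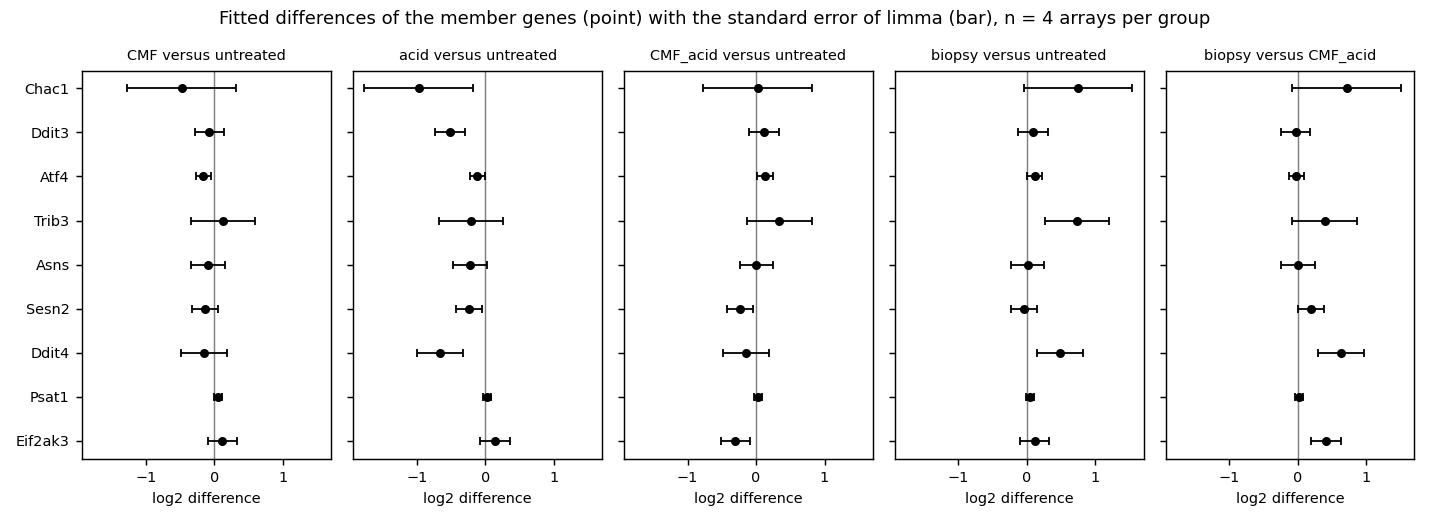
Fitted log2 difference (points) and limma standard error (bars, n = 4 arrays per group) of the 9 tested genes in 5 comparisons. The largest differences from 0 are those of Chac1, -0.97 for acid and 0.75 for biopsy, and their standard errors of 0.79 are also the widest.

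The 4 groups without biopsy form a factorial of both exposures, and the interaction asks whether CMF_acid departs from the sum of CMF and acid alone. At their brighter probe sets, Atf4 had an interaction of 0.41 ± 0.16 and Ddit3 of 0.71 ± 0.31 (SE), the 2 member probe sets that passed without adjustment. Both probe sets had fitted differences from untreated below 0 for either exposure alone and above 0 for both. The Chac1 value was 1.48 ± 1.12, or 0.88 without CMF replicate 4, and the limma adjusted p was 0.779 for each of these 3. The dimmer Atf4 probe set had an interaction of 0.12 ± 0.23 (SE; limma, adjusted p = 0.879) and a CMF_acid difference from untreated of -0.09. Without CMF_acid replicate 5 the values were 0.41 for Atf4, 0.72 for Ddit3 and 1.14 for Chac1.

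Within groups, Chac1 and Trib3 had among the widest spreads on the array. The SD within groups of Chac1 was 1.18, at the 99.9th percentile of all tested probe sets, whose median was 0.203. The 2 Trib3 probe sets had SDs of 0.70 and 0.88 (99.0th and 99.7th percentile), the dim Eif2ak3 probe set (1430371_x_at) 0.55 (97.1st) and Ddit4 0.49 (95.2nd). Thus 5 of the 16 member probe sets lay above the 95th percentile, or 2 of 16 with the software signal, an alternative chosen after seeing the data. The brighter Psat1 probe set had an SD of 0.078, at the 16.2nd percentile. Among the 272 probe sets of like intensity it was at the 54.0th percentile, so its spread was ordinary for its intensity. From the lowest to the highest array, Chac1 spanned 12.5-fold, the Trib3 probe sets 5.70-fold and 11.1-fold and Ddit4 4.17-fold.

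**Figure D3:**
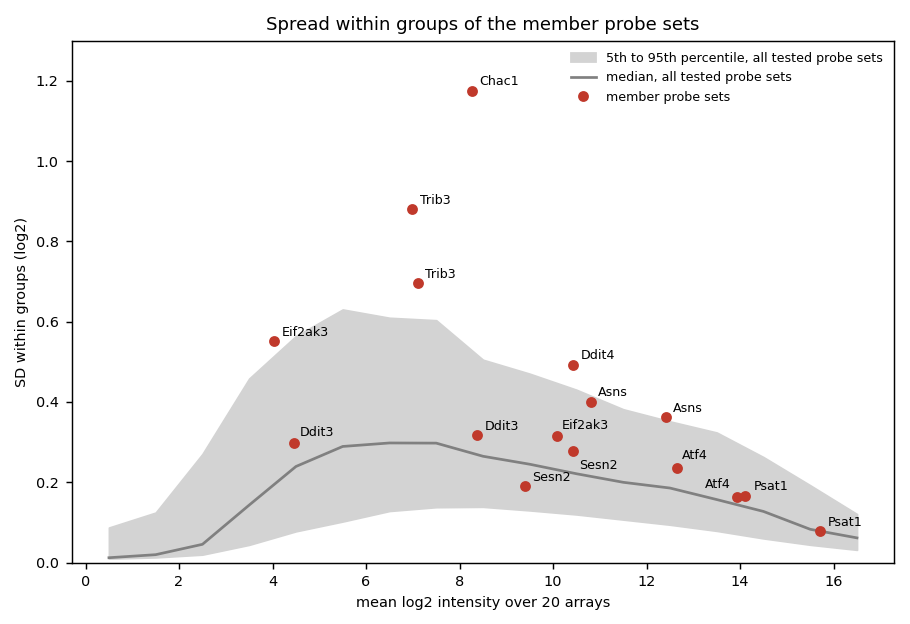
SD within groups (vertical axis, log2) against mean log2 intensity over the 20 arrays for the 16 tested member probe sets (points), over the median and the 5th to 95th percentile of all tested probe sets of like intensity (line and band). Chac1, at 1.18, and the Trib3 probe sets, at 0.70 and 0.88, lie above the band. So do Ddit4, at 0.49, the dim Eif2ak3 probe set, at 0.55, and, close to its edge, the bright Asns probe set, at 0.36.

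The spread followed the replicate number for some members. In a fit with group and replicate number, 1056 of 25553 probe sets differed among the 4 numbers at an adjusted p under 0.05 (4.13%), and 3 of 16 member probe sets did (18.75%), both of Asns and the dim one of Eif2ak3. At an unadjusted p under 0.05 the counts were 5383 (21.1%) and 9 of 16 (56.25%). Counted at each gene's brightest probe set, 1 of 9 members was called (11.11%), beside 5.63% of 12025 genes. Without adjustment 5 of 9 passed (55.56%), beside 26.39% of all genes. The bright Asns probe set had F = 12.26 (limma, adjusted p = 0.0228) and the dimmer one (1451095_at) F = 22.65 (adjusted p = 0.00504). The first of these was no longer called without CMF replicate 2, acid replicate 2 or biopsy replicate 2 (adjusted p = 0.0591, 0.0619 and 0.0636).

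At the dimmer Asns probe set, the replicate 2 pools measured 11.24 (untreated), 11.59 (CMF), 11.37 (acid), 11.10 (CMF_acid) and 11.40 (biopsy). The other 15 pools measured 10.13 to 10.94. All 5 replicate 2 pools thus lay above the other 15. Being the highest pool within each of the 5 groups, a weaker criterion, was met by replicate 2 at 0.924% of all tested probe sets. Against the mean of the other 3 numbers, replicate 2 was higher by 0.71 ± 0.09 at this probe set and by 0.62 ± 0.10 at the bright one (SE; limma, adjusted p = 0.00418 and 0.0155), in a comparison that called 1.22% of all probe sets. The second of these calls was lost without acid replicate 2 or biopsy replicate 2 (adjusted p = 0.0637 and 0.0610).

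For Trib3, Ddit3, Atf4, Chac1, Ddit4 and Sesn2 the replicate 2 difference did not pass the adjusted threshold. It was 0.97 ± 0.25 for Trib3 (limma, adjusted p = 0.0778), 0.42 ± 0.11 for Ddit3 (adjusted p = 0.0994), 0.33 ± 0.09 for the dimmer Atf4 probe set (adjusted p = 0.0930) and 0.98 ± 0.39 for Chac1 (adjusted p = 0.266). It was 0.25 ± 0.23 for Ddit4 and 0.21 ± 0.13 for the brighter Sesn2 probe set (SE; limma, adjusted p = 0.770 and 0.576). At the brightest probe sets 7 of 9 genes were higher in replicate 2, while Psat1 and Eif2ak3 were lower (lowest -0.07). Over all genes 6375 were higher and 5650 lower. Of the 16 member probe sets, 11 were higher and 5 lower. The brighter Atf4 probe set had means of 14.09 in replicate 2, 13.82 in 3, 13.94 in 4 and 13.92 in 5. It was not called among the numbers, with a limma adjusted p of 0.143 to 0.403 when pools were left out. Chac1 split the numbers in another way, with means over the 5 groups of 9.00 in replicate 2, 7.64 in 3, 7.28 in 4 and 9.13 in 5. Its replicate 4 pools differed from the others by -1.31 ± 0.39 (limma, adjusted p = 0.137, beside 1.04% of all probe sets called) and its replicate 5 pools by 1.15 ± 0.39 (adjusted p = 0.172, beside 0.861% called). The replicate 4 value was the lowest among the 12025 tested genes although biopsy replicate 4, at 9.05, was not low.

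Untreated replicate 2 lay below the treated replicate 2 pools for Chac1 and Trib3. Chac1 measured 7.68 in it and 9.07 to 9.61 in the other 4, and Trib3 6.59 in it and 7.28 to 8.86 in the other 4. Without this pool the difference among numbers was called for Chac1 (F = 16.58, limma adjusted p = 0.0167) and for both Trib3 probe sets (adjusted p = 0.0118 and 0.0486), so that 6 of 16 member probe sets passed, beside 3.22% of all tested probe sets. The Trib3 difference of replicate 2 then became 1.32 (adjusted p = 0.00944). In the same fit the replicate 4 pools were called low for Chac1 (-1.47, adjusted p = 0.0457) and for Trib3 (-0.85, adjusted p = 0.0387). Untreated replicate 2 was singled out after its values were seen. Of the 20 fits that left out a pool, 2 called Chac1 among the numbers and 1 called each Trib3 probe set. The replicate 2 call of Trib3 and the replicate 4 calls were each made in 1 of 20 fits.

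The dim Eif2ak3 probe set was highest in replicate 3 of all 5 groups, at 4.91 (untreated), 4.45 (CMF), 4.75 (acid), 5.00 (CMF_acid) and 4.95 (biopsy). The other 15 pools measured 3.44 to 4.30. Replicate 3 exceeded the others by 1.03 ± 0.10 (SE; limma, adjusted p = 0.00102), in a comparison that called 2.18% of all probe sets, and 1.64% of all probe sets had replicate 3 highest in every group. The F was 33.65 (adjusted p = 0.00218), and with the software signal the call was lost (adjusted p = 0.0558). The probe set was called Present on 16 arrays, and the bright Eif2ak3 probe set did not follow the number (F = 0.54, adjusted p = 0.863). Another (1453505_a_at) was not called Present on any array.

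**Figure D4:**
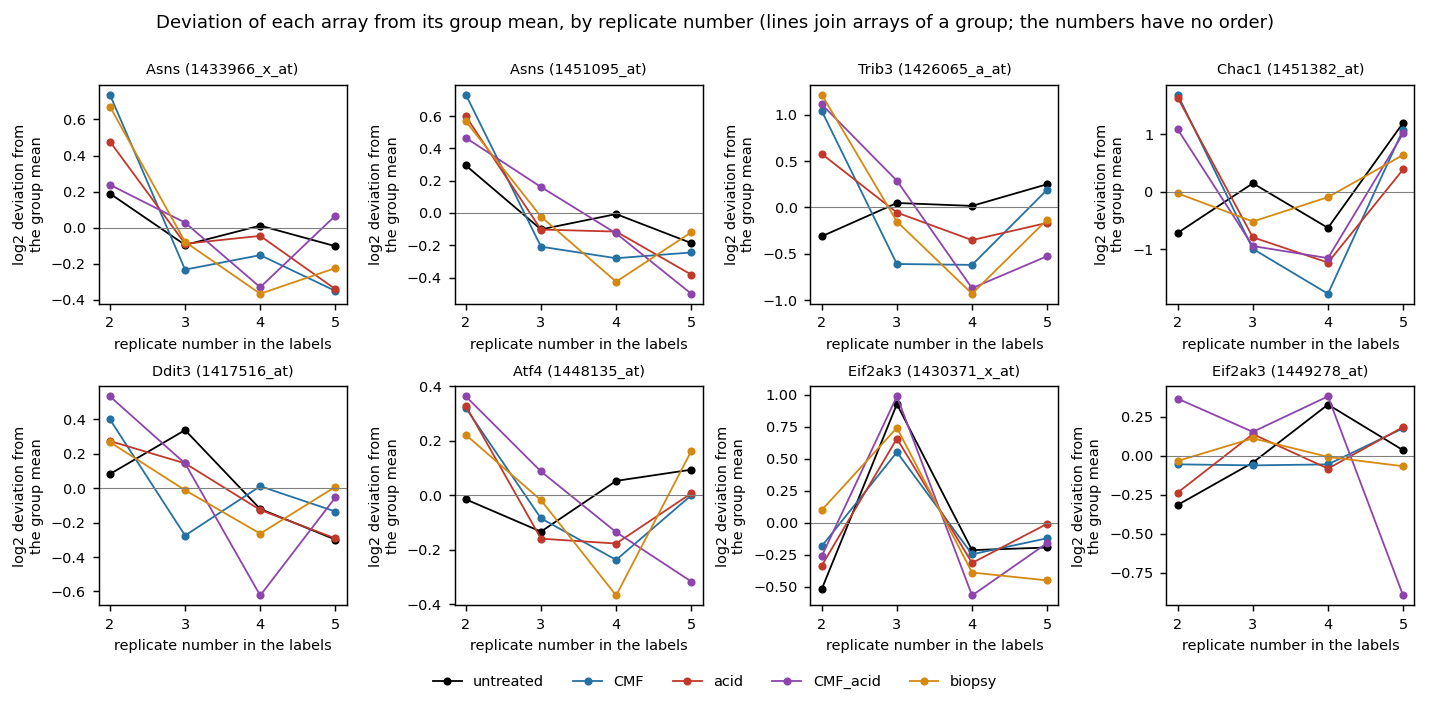
Log2 deviation of each array from its group mean (vertical axis) by replicate number (horizontal axis, a name with no order) for 8 member probe sets, with a line for each group. Both Asns probe sets are highest at replicate 2 in all 5 groups, the dim Eif2ak3 probe set is highest at replicate 3 in all 5, and at replicate 2 the untreated point is the lowest for Trib3 and Chac1.

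The replicate number accounted for 84.0% and 73.8% of the variance within groups of the Asns probe sets, 88.5% for the dim Eif2ak3 probe set, 63.6% for Chac1, 58.3% for the brighter Trib3 probe set and 58.1% for the brighter Ddit3 probe set. It accounted for 24.8% for Ddit4, close to the median of 25.0% over all tested probe sets. For Atf4 the share was 46.5% at the brighter and 56.2% at the dimmer probe set. Without CMF_acid replicate 5, 2394 of 25553 probe sets were called among the numbers, against 1056 with all arrays. Of the 16 member probe sets, 4 were called, against 3 with all arrays. Without this array, both Asns probe sets (limma, adjusted p = 0.0103 and 0.00443) and the dim Eif2ak3 one (0.00304) were joined by the dimmer Atf4 probe set (adjusted p = 0.0305). The brighter Atf4 probe set was not called (limma, adjusted p = 0.184).

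Some pairs of members, though not all, were correlated between pools. With group means subtracted, Pearson's r over the 20 arrays was 0.77 for Trib3 and Asns, 0.75 for Ddit3 and Trib3, 0.72 for Ddit3 and Asns and 0.70 for Atf4 and Asns. Trib3 and Ddit4 had an r of 0.61, Chac1 and Trib3 0.57 and Chac1 and Ddit4 0.54. Among Chac1, Ddit3, Atf4, Trib3, Asns and Ddit4, a grouping made after the values were seen, all 15 pairs had positive r, from 0.19 to 0.77 with a median of 0.54. For these genes the 95th percentile of r with 12016 other genes was 0.41, 0.53, 0.43, 0.52, 0.58 and 0.36. Chac1 and Ddit3 (0.36), Ddit3 and Atf4 (0.34), Chac1 and Asns (0.39) and Asns and Ddit4 (0.19) lay below the values of both genes. The 21 pairs with Sesn2, Psat1 or Eif2ak3 had r from -0.54 to 0.42 with a median of -0.07, or from -0.64 to 0.43 without CMF_acid replicate 5. Psat1 and Eif2ak3 changed from -0.43 to 0.19 when this array was left out. The pools share an amplification and array each, and part of this is the replicate number. With the number subtracted too, the 15 pairs stayed positive with a median of 0.35, with 0.51 for Trib3 and Asns and 0.70 for Trib3 and Ddit4.

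**Figure D5:**
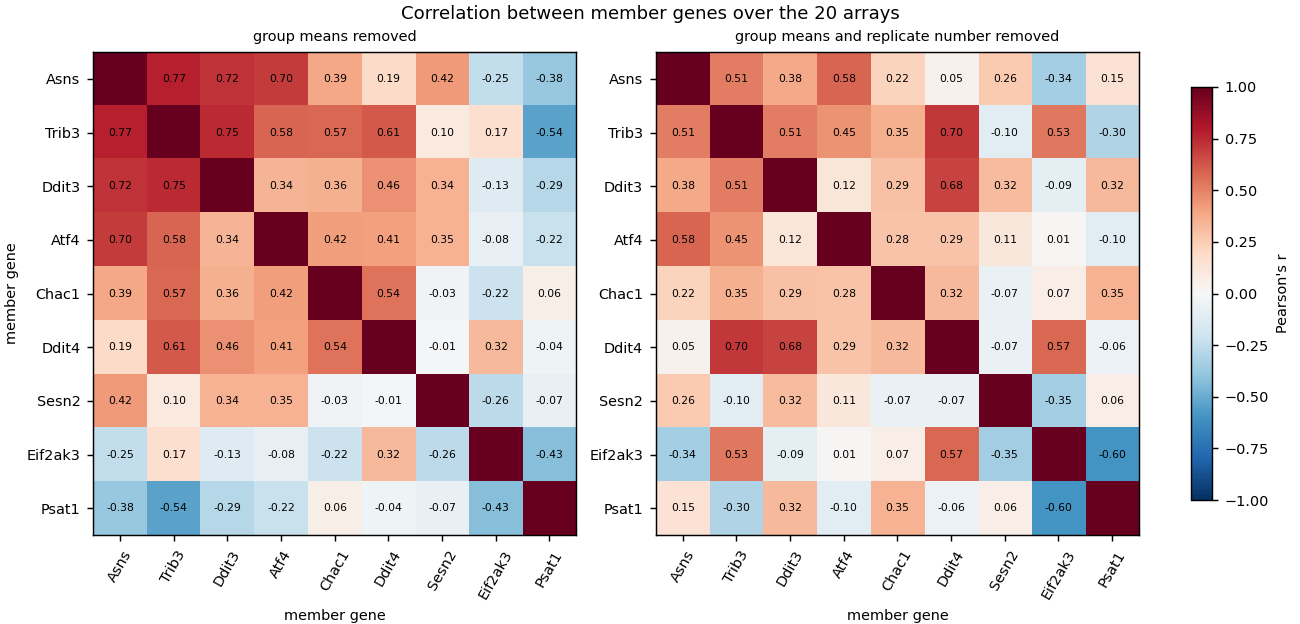
Pearson's r between the 9 tested genes over the 20 arrays, with group means subtracted (left) and with group means and replicate number subtracted (right), coloured from -1 to 1. The 15 pairs among Asns, Trib3, Ddit3, Atf4, Chac1 and Ddit4 are positive in both panels, with medians of 0.54 and 0.35. These genes were grouped after their values were seen.

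The probe sets of a gene did not always move together. With group means subtracted, r between the probe sets was 0.90 for Trib3 and 0.88 for Asns, but 0.49 for Atf4, 0.43 for Ddit3, 0.14 for Sesn2, 0.12 for Eif2ak3 and -0.23 for Psat1. On CMF_acid replicate 5 the log2 gap between brighter and dimmer probe set was 2.42 for Asns (1.36 to 1.76 on the other 19 arrays), 2.32 for Psat1 (1.45 to 1.75) and 0.27 for Sesn2 (0.77 to 1.64).

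Genes outside the set were ranked by Pearson's r with each member over the 20 arrays. For Trib3 the closest were Btbd9 (0.85), Mthfd2 (0.84), a mitochondrial enzyme of one-carbon metabolism, and Nupr1 (0.80), a stress-induced chromatin protein. Mthfd2 was also among the closest 3 for Ddit4 (0.77) and Chac1 (0.68), the latter after Snhg17 (0.73) and Atf7ip2 (0.70). Atf4 was closest to Aldh18a1 (0.79), an enzyme of proline synthesis, Fahd2a (0.75) and Ankrd26 (0.72), and Ddit3 to Cbx8 (0.75), Btbd9 (0.73) and Tshz1 (0.72). Ddit4 was followed by Aspm (0.73) and Lyst (0.69), and Asns by 1110032A03Rik (0.86), Mybpc1 (0.86) and Tmem8b (0.84). Sesn2 was closest to Smpd4 (0.73), Rnf169 (0.71) and Eomes (0.69), and Psat1 to Zfp574 (0.87), Tlcd3b (0.83) and Ube2d3 (0.82), values that became 0.83, 0.76 and 0.75 without CMF_acid replicate 5. The Eif2ak3 values of 0.95 with Tfdp1, 0.94 with Dbf4 and 0.94 with Ogt became 0.80, 0.76 and 0.74 without CMF_acid replicate 5. All these r values keep the group means. With group means subtracted, as for the pairs of members, the 95th percentile of r with 12016 other genes was 0.36 for Ddit4 to 0.81 for Eif2ak3. That is another measure and gives no background for the highest of many genes. High r is in part a product of this ranking, and whether it exceeds chance was not tested. Of the genes ranked here, Mthfd2, Nupr1 and Aldh18a1 are on the lists of related function used below, and the others are not.

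Other genes of the pathway were taken from lists of related function, and 0 of them were called in any group comparison (limma). Of the amino acid transport targets, 5 of 6 tested genes were higher and 1 lower in biopsy than in untreated (median 0.08). Slc7a3, a carrier of arginine and lysine, differed by 0.78 ± 0.39 (SE; limma, adjusted p = 1), or by 0.48 without biopsy replicate 2. Of 8 tested ATF4 partners and related bZIP factors, 5 were higher and 3 lower (median 0.03), with Nupr1 at 1.10 ± 0.58 (limma, adjusted p = 1). The Nupr1 probe set was called Present on 13 of 20 arrays and on 1 of the 4 untreated ones, and its difference was 0.70 without biopsy replicate 2. Of 12 tested genes of amino acid synthesis and one-carbon metabolism, 6 were higher and 6 lower (median -0.0058), with Mthfd2 at 0.30 ± 0.19 (limma, adjusted p = 1). The 14 other tested targets of ATF4 or CHOP split into 7 higher and 7 lower (median 0.0097).

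The 10 tested eIF2 kinases and subunits split into 5 higher and 5 lower in biopsy (median 0.0040), with a range of -0.10 to 0.04. Of 5 tested genes of the eIF2 phosphatase and its feedback, 3 were higher and 2 lower (median 0.05). Ppp1r15a, the stress-induced phosphatase subunit GADD34, differed from untreated by 0.45 ± 0.16 in CMF_acid (limma, adjusted p = 0.834). For acid, the death receptor gene Tnfrsf10b, a CHOP target, was at -0.37 ± 0.15 (limma, adjusted p = 0.9999). Of 16 genes of the other arms of the unfolded protein response, 13 were higher and 3 lower in biopsy (median 0.03), beside 7107 higher and 4918 lower of all 12025 genes. This tilt was not particular to biopsy. Against the same untreated pools, 13 were higher and 3 lower for CMF (median 0.04) and 12 and 4 for acid (0.05). For CMF_acid the split was 9 and 7 (median 0.04).

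Among the replicate numbers, 677 of 12025 genes were called at their brightest probe set (5.63%). In the lists these were 1 of 14 other ATF4 or CHOP targets, 1 of 12 genes of amino acid synthesis, 4 of 16 genes of the other arms and 0 of the rest, which comprised 10 eIF2 kinases and subunits, 5 phosphatase genes, 8 bZIP factors and 6 transporters. Ndrg1, a stress-responsive gene also induced by low oxygen, had F = 25.09 (limma, adjusted p = 0.00414) and was higher in replicate 2 by 1.59 ± 0.22 (adjusted p = 0.00552). Pck2, the mitochondrial form of the enzyme that makes phosphoenolpyruvate, had an adjusted p of 0.0364, which rested on single pools. It remained called in 6 of 20 fits that left out a pool. Its replicate 2 difference was 0.65 ± 0.15 (adjusted p = 0.0564).

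The 4 genes of the other arms were Calr (adjusted p = 0.0083), Creld2 (0.0210), Hyou1 (0.0237) and Sel1l (0.0326), of which Sel1l was named after its values were seen. Calr and Hyou1 are chaperones of the endoplasmic reticulum, Creld2 is a secreted target of the ATF6 arm and Sel1l is part of the machinery that removes misfolded proteins. None of the 4 had its highest mean in replicate 2. Calr had means over the 5 groups of 15.22 in replicate 2, 15.28 in 3, 15.10 in 4 and 15.40 in 5, and Hyou1 of 9.56, 9.76, 9.74 and 10.22. Calr was not called with the software signal (adjusted p = 0.373), Hyou1 not without CMF replicate 5 (0.0510), and Sel1l remained called in 7 of 20 fits that left out a pool. Among the lineage markers, 3 of 10 were called among the numbers, Pou5f1, Krt18 and Sox17. Sox17, a primitive endoderm factor, had means of 7.34 in replicate 2, 5.46 in 3, 6.50 in 4 and 6.07 in 5, and its part in the differences of the members was not tested.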

How the data were processed

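Per the labels and the series design text, RNA of 20 pools was hybridised to 20 arrays, 4 in each of 5 groups, and samples were grouped by their titles. The authors' deposited series table holds linear intensities, 1 for each probe set on each array. The design text says that they were made with GC-RMA in ArrayAssist Lite 3.4, whose background model uses the probes' base composition and which normalizes across arrays, and so can compress differences at low signal. Each array's deposited table gives a scaled intensity (the software signal), a detection call and, per the file headers, a detection p-value, from software of a version that the sources used here do not give. Per the submitters' processing notes, GeneSpring 7.31 and Partek Genomics Suite 6.3 were used afterwards.

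Values were log2 transformed. After leaving out 64 control probe sets, the 25553 called Present on at least 3 arrays were fitted with limma 3.58.1 (R 4.3.3; lmFit and eBayes, 5 group means over 20 arrays, two-sided, Benjamini-Hochberg within each comparison, threshold 0.05). The replicate number was tested in a fit with group and number. The script was tested on simulated data. For each of 12025 genes the tested probe set of highest mean stood for the gene. The platform annotation gave 1 symbol for 34958 probe sets, several for 932 and none for 9211 that it did not list, and 34754 gene numbers matched the RefSeq gene table. Promoter sequences are from RefSeq (GRCm38.p6), where all 10 genes matched.

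The members, gene lists, tests and alternatives were chosen with earlier results of these data known. Named genes were the 10 members, up to 3 genes of lowest unadjusted p per list and comparison, and the 3 genes of highest correlation per member. The number of arrays limits the precision. Alternatives were the software signal as log2(signal + 1), other detection filters (none, or Present on 10 or more arrays), log2(value + 32), the replicate block, leaving out each pool, fitting only the groups compared, gene means over probe sets, and trend and robust moderation.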

Additional observations from a re-analysis of the deposited data

Results flagged for a closer look

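Values at 5 member probe sets lay far from the other 3 pools of their group by Dixon's criterion at the 95% level, among 80 groups of 4 checked, where chance gives about 1 in 20. Asns at its dimmer probe set (1451095_at) measured 11.59 in CMF replicate 2, against 10.58 to 10.65 in the other CMF pools. The dim Eif2ak3 probe set (1430371_x_at) measured 4.45 in CMF replicate 3, against 3.65 to 3.78. Both arrays carry the replicate number that was highest in every group for that probe set. The bright Eif2ak3 probe set (1449278_at) measured 10.35 in CMF replicate 5, against 10.11 to 10.12, a gap that stands out because the other 3 values were close together. The second Sesn2 probe set (1451599_at) measured 9.57 in untreated replicate 5, against 9.40 to 9.42. The dim Ddit3 probe set (1443897_at) measured 4.61 in CMF_acid replicate 5, the array that stood apart, against 4.46 to 4.49, without a Present call on any of these 4 arrays.

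The probe set of Atf3, which was not tested, had its single Present call on acid replicate 2, at 3.09 against 2.37 to 2.75 on the other 19 arrays.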

How the results depend on the processing

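In every group comparison, 0 member probe sets were called under every alternative run. Over all probe sets, leaving out a pool gave 0 to 1 calls for biopsy, CMF, acid and CMF_acid versus untreated, the interaction and the difference among groups, with the 1 call without untreated replicate 5, acid replicate 5 (acid) or CMF_acid replicate 4 (CMF_acid). The replicate block left all group comparisons at 0 calls. The standard errors and unadjusted counts given for the groups are from the fit without the number, so they include spread that follows it. With the number removed, the SD within groups went from 1.18 to 0.79 for Chac1 and from 0.36 to 0.21 for the bright Asns probe set. For the bright Eif2ak3 probe set it went from 0.32 to 0.33, and the median over all tested probe sets from 0.203 to 0.180. Same-numbered arrays correlated in their deviations from group means (r over probe sets -0.09 to 0.40, median 0.20, 30 of 40 pairs over 0.1, and 20 of 20 arrays matched best with their own number), a hint from the data, since the labels give only a number. The 1056 calls among replicate numbers became 245 with the software signal and 675 with no detection filter. They ranged from 534 to 2394 when a pool was left out, with 534 without CMF replicate 3, 574 without acid replicate 2, 592 without CMF_acid replicate 4, 612 without acid replicate 4, 657 without CMF_acid replicate 3, 673 without untreated replicate 3 and 2394 without CMF_acid replicate 5. Member calls among numbers ranged from 2 to 6 of 16 when a pool was left out, beside the 534 to 2394 of all 25553 probe sets. The genes whose highest group was unchanged numbered 5 of 9, and the probe sets above the 95th percentile of spread 2, with the software signal. The cause was not tested. The biopsy differences of Ddit3 and Asns changed sign, Ddit3 to -0.077 (software signal) and, over pools left out, -0.012 to 0.20, and Asns to -0.0024 (software signal), -0.051 (mean of probe sets) and -0.21 to 0.13. The CMF difference of Chac1 ranged from -1.04 to 0.11. Chac1 passed among numbers with Present on 10 or more arrays (adjusted p = 0.0488), as a gene mean among fewer tests (0.0415) and without biopsy replicate 4 (0.0492), over a range of 0.0167 to 0.109 when pools were left out. The Eif2ak3 gene mean passed too (0.0263). Signal over background limits Atf3, Nupr1 and the dim Ddit3 and Eif2ak3 probe sets.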
